A study of Mus musculus with 18 samples.

Results

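The 1000 broadest peaks of the histone mark H3K4me3 in EPZ6438-treated pre-osteoblasts were described, out of 16216 peaks in the merged EPZ6438 list. They were chosen by width alone (end minus start, ties by chromosome and start), made up 6.17% of the peaks and held 16.9% of the bases covered. Their widths ran from 1070 to 3388 bases with a median of 1284. The broadest lay at Bbc3, inside Runx2, and at Smarca2. EPZ6438 inhibits EZH2, the enzyme that writes the repressive mark H3K27me3.

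H3K4me3 is written by COMPASS-type methyltransferases around the starts of active genes, usually as a short block just downstream of the start site. At some genes the block spreads far into the gene body, and such broad domains have been described at highly transcribed genes and at genes that define a cell's identity. H3K27me3 marks silenced developmental genes, and promoters that carry both marks are called bivalent.

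The cells were MC3T3-E1 subclone 4, a line of calvarial pre-osteoblasts from a C57BL/6 mouse, at passage 9. Both arms stood for 3 days in osteogenic medium (ascorbic acid and beta-glycerol phosphate), with 2.5 µM EPZ6438 in one arm and 0.25% DMSO as vehicle in the other. The labels do not say whether EPZ6438 was given in DMSO. RNA was sequenced from 3 samples per arm, and H3K4me3 and H3K27me3 were profiled by chromatin immunoprecipitation from 2 samples per mark and arm, with peaks analysed here from a single merged list for each mark in each arm. The line is 1 subclone. The labels do not tell whether samples of an arm were grown apart, so the p-values speak only of the spread from sample to sample, part of which may be technical.

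RNA libraries held 18807156 to 25365513 reads in genes, and the peak lists give no depth, height or score. The osteoblast genes used as markers were present: Sp7 stood at 102 ± 3.25 RPKM in EPZ6438 and 54.1 ± 1.62 RPKM in DMSO (SD, n = 3 each), and Runx2 at 45.8 ± 3.05 and 30.4 ± 1.59 RPKM. RPKM scales reads in a gene by its length in kilobases and by the library's total reads in genes. The highest member of the endothelial list reached 0.405 RPKM in EPZ6438, of the blood cell list 1.20, of the skeletal muscle list 1.56 and of the adipocyte list 2.93, while Tubb3, of the neuronal list, reached 33.6 RPKM. No member of these 5 lists had an end within 1 kb of a broad peak. The chondrocyte list differed: its highest member reached 115 RPKM in EPZ6438, and 2 of its 13 genes, Sox9 and Sox5, were at broad peaks. In a bulk sample, fewer cells of a type and less RNA per cell cannot be told apart.

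Some of the promoters under or beside broad peaks are shown here, because the results below return to their genes: the broadest peak of all (Bbc3), a peak much wider than in DMSO whose gene fell (Smarca2), a broad peak whose gene did not pass the test (Snai1), a pair whose genes rose (Phospho1, Klf4) and another pair whose genes fell (Ddx58, Cav1). Each runs 5′ to 3′ along the gene, from 250 bases before to 50 bases after the start site, as listed by RefSeq on GRCm38.p6, the same assembly as the mm10 build of the peaks. Capitals mark each CpG dinucleotide, the substrate of DNA methylation that marks CpG-island promoters when dense. The windows are chr7:16310011-16310310, plus strand, for Bbc3; chr19:26604910-26605209, plus strand, for Smarca2; chr2:167537945-167538244, plus strand, for Snai1. Those of the genes that rose are chr11:95824250-95824549, plus strand, for Phospho1 and chr4:55532426-55532725, minus strand, for Klf4. Those of the genes that fell are chr4:40239776-40240075, minus strand, for Ddx58 and chr6:17307390-17307689, plus strand, for Cav1.
Bbc3: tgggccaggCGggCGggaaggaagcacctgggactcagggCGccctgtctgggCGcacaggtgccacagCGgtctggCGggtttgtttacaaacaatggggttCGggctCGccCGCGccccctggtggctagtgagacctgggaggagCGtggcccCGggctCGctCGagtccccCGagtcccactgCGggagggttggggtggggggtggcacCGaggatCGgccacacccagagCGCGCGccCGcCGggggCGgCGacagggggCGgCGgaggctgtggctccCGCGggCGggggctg
Smarca2: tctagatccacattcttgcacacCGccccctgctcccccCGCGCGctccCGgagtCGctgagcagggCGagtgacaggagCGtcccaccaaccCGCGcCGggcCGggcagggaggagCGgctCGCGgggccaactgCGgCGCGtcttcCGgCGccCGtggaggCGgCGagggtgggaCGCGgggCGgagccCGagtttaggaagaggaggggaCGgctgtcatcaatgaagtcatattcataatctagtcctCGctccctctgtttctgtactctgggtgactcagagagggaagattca
Snai1: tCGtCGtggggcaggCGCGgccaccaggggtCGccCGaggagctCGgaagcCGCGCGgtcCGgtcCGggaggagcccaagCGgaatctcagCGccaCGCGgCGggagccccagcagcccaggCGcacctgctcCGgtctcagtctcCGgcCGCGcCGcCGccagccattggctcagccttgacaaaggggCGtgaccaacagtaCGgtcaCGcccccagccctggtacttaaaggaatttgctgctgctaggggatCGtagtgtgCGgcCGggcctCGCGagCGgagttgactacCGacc
Phospho1: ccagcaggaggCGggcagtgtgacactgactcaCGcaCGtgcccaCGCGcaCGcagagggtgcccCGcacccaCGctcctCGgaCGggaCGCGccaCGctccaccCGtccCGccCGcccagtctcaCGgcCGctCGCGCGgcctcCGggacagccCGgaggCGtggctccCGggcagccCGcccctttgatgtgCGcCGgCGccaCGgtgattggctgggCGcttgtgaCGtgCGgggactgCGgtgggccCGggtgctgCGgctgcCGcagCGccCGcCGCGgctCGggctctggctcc
Klf4: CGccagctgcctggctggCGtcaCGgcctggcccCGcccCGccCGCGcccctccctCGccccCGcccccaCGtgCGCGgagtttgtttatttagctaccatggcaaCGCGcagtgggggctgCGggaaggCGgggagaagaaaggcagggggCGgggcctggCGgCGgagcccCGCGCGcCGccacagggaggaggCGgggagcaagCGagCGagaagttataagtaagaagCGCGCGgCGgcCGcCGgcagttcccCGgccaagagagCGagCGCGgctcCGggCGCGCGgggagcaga
Ddx58: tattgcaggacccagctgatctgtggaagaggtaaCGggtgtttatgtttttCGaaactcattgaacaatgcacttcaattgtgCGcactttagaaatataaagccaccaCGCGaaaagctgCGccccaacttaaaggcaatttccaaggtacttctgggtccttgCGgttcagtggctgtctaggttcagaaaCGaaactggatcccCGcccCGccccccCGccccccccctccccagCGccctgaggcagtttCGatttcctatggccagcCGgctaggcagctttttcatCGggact
Cav1: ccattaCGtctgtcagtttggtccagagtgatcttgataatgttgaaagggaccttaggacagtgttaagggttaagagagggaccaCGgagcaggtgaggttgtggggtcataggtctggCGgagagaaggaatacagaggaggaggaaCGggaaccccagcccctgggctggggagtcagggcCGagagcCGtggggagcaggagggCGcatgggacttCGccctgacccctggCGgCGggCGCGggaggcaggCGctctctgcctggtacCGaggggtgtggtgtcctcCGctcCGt

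These windows differ most in their CpG count. Phospho1 held 42 CpGs, Klf4 40, Snai1 34, Bbc3 30 and Smarca2 29, whereas Cav1 held 16 and Ddx58 held 15. The Cav1 window belongs to a RefSeq start 72 bases beyond its peak and inside the listed gene span. The windows are single examples and do not compare genes that rose with genes that fell. The Ddx58 window was the only one shown with a TATAAA match. RefSeq starts outside chromosome 18 were then counted. Over the 1082 inside or within 500 bases of a broad peak, the median was 28.0 CpGs per window (quartiles 20 and 37). It was 23.0 (16 and 31) at 8427 starts at the other EPZ6438 peaks and 4.00 (2 and 9) at 23342 starts with no such peak. Median GC content was 67.3% at broad peaks, 62.7% at the other peaks and 49.3% at starts with no peak. Motifs were searched on both strands. GGGCGG, the core of the GC box, which shares letters with CpG itself, was found in 79.9% of windows at broad peaks, 70.1% at the other peaks and 35.7% of all windows. CCAAT was found in 28.2%, 38.1% and 37.4%, and TATAAA in 4.90%, 5.23% and 13.6%. A match is a description of the letters and not a site in use.

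The broad peaks extended into the genes. Chromosome 18 was left out of the counts of start sites. Of the 986 broad peaks on the remaining chromosomes, 454 (46.0%, 95% Wilson interval 43.0 to 49.2) contained a RefSeq start, against 14.2% of the other EPZ6438 peaks. On or within 500 bases of a start lay 77.5% against 53.7%. A wider peak has more room to hold a start. At 620 broad peaks with a single gene, the median upstream edge lay at -8.00 bases from the start and the downstream edge at 1255 bases. At 5295 other peaks of this kind the edges lay at 50.0 and 578 bases. The peak centre was downstream of the start in 92.9% of the broad and 87.1% of the other peaks. The Bbc3 peak, for example, reached 2734 bases downstream and 653 bases upstream of its start, and the Phospho1 peak 1616 and 23 bases. The Cav1 peak ended 72 bases before its RefSeq start and reached 1184 bases upstream of it, but it lay wholly inside the gene as the expression table lists it, with an earlier start. Among the peaks to which starts inside or within 500 bases were assigned, 132 of 762 broad peaks (17.3%) and 1077 of 6407 other peaks (16.8%) had starts on both strands.

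**Figure D1:**
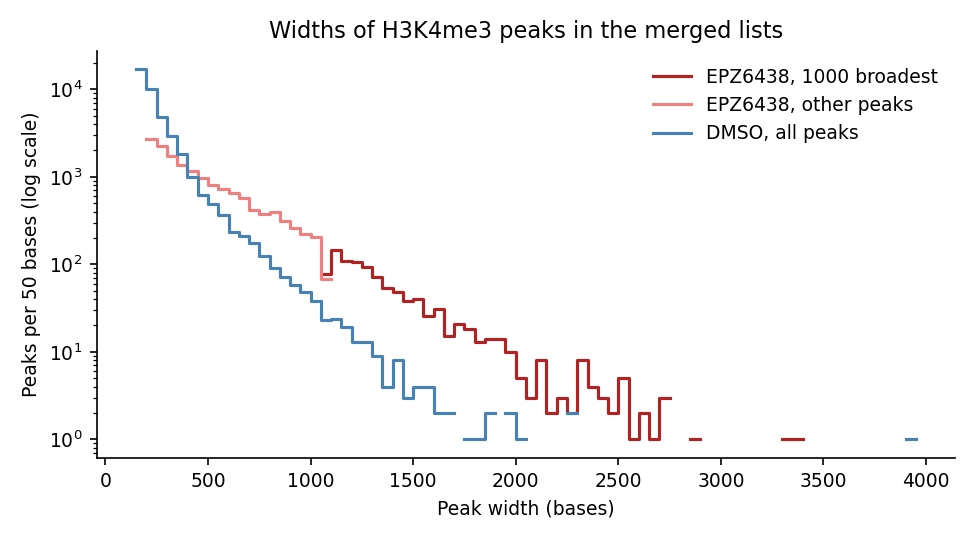
Number of H3K4me3 peaks per 50 bases of width (log scale) against peak width in bases, for the 1000 broadest EPZ6438 peaks, the other EPZ6438 peaks and all DMSO peaks. The DMSO list holds many more short peaks, with a median of 212 bases against 401 in the EPZ6438 list, and 127 DMSO peaks against 1000 EPZ6438 peaks reach 1070 bases.

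The comparison with DMSO asked how wide H3K4me3 was at the same places without the inhibitor. Most broad peaks sat where DMSO cells had H3K4me3 too, as shorter or broken blocks. Of the 1000, 935 (93.5%, interval 91.8 to 94.9) were overlapped by at least 1 DMSO peak, against 50.6% of the other EPZ6438 peaks and 53.5% of those at gene ends. The widest DMSO peak under a broad peak had a median of 551 bases (177 to 2268), and the EPZ6438 peak was a median 2.49 times as wide (quartiles 1.61 and 3.96, range 0.709 to 10.6). At the other peaks at gene ends with a DMSO peak the median ratio was 1.56. In 920 of the 935 (98.4%, 97.4 to 99.0) the EPZ6438 peak was the wider one, in 595 at least 2-fold and in 224 at least 4-fold. Since width in the EPZ6438 list chose these peaks, the excess is a description and was not tested.

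Several DMSO peaks often lay under 1 EPZ6438 peak. There were 519 broad peaks with 1 DMSO peak, 331 with 2, 73 with 3 and 12 with 4 or more, so that 41.6% held at least 2, against 3.38% of the other peaks. A wider peak has more room to meet DMSO peaks. This share and the overlapped share above are therefore not independent of the choice by width. Even the summed DMSO widths gave a median ratio of 1.83, and DMSO peaks covered 50.1% of the bases of the broad set. The same view from the other side gave a smaller difference. The 1000 broadest DMSO peaks were 637 bases or wider, 926 of them met an EPZ6438 peak, and the EPZ6438 peak was a median 1.17 times as wide and the wider one in 72.1%. Of the 1000 broad EPZ6438 peaks, 387 (38.7%) overlapped one of the 1000 broadest DMSO peaks, and 394 (39.4%) of those DMSO peaks overlapped a broad EPZ6438 peak.

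The lists themselves differed in ways that move with these widths. The EPZ6438 list held 16216 peaks over 8.22 Mb and the DMSO list 40113 peaks over 10.4 Mb, and their shortest peaks were 229 and 177 bases. The part of these differences in the widths was not tested.

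**Figure D2:**
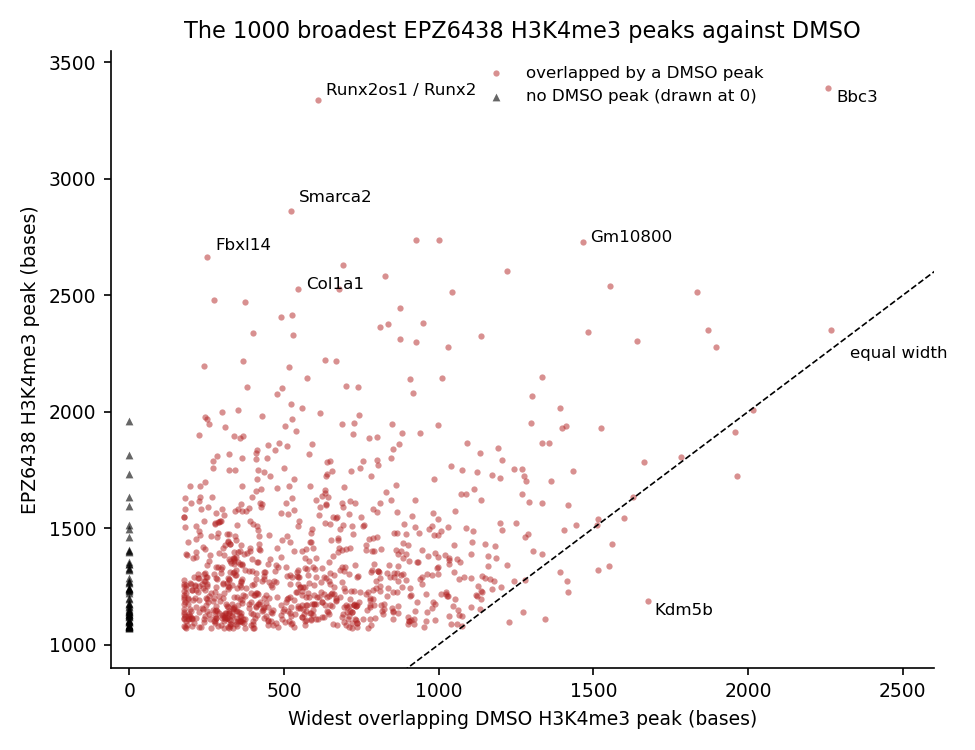
Width of each of the 1000 broadest EPZ6438 H3K4me3 peaks (bases, vertical axis, which starts at 900) against the widest DMSO H3K4me3 peak that overlaps it (bases, horizontal axis). The dashed line marks equal width, 920 of 935 overlapped peaks lie above it, and the 65 peaks with no DMSO peak are drawn as triangles at 0.

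The broadest peak, 3388 bases at chr7:16309608-16312995, spanned the start of Bbc3, which encodes PUMA, a pro-apoptotic BH3-only protein induced by p53. It was broad in DMSO as well, where a peak of 2259 bases, the 3rd broadest of that list, and another of 187 bases lay beneath it. The Bbc3 RNA was at 2.27, 4.78 and 3.90 RPKM in EPZ6438 and 1.91, 2.11 and 4.51 RPKM in DMSO. The arms overlapped, and the change did not pass the test (log2 change 0.39, SE 0.38, limma adjusted p = 0.617). The broadest H3K4me3 peak of the treated cells therefore stood at a gene whose level was below the median of 15.3 RPKM over the coding genes at broad peaks.

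The next, of 3339 bases at chr17:44733420-44736758, lay inside Runx2, which encodes the transcription factor that commits cells to the osteoblast lineage. Its centre stood 79709 bases from the nearer end of Runx2 and within 1 kb of an end of Runx2os1, an opposite-strand transcript. Only the outer ends of genes were used, so the peak was not set against any Runx2 start inside the gene. In DMSO 4 separate peaks lay beneath this EPZ6438 peak, the widest of 610 bases. Another broad peak of 1632 bases (rank 168) was centred 2179 bases from that same, nearer end of Runx2, over a DMSO peak of 269 bases. At that end itself stood peaks of 717 and 606 bases in EPZ6438 (ranks 3097 and 4396), over DMSO peaks of 189 and 393 bases. Runx2 therefore has no end within 1 kb of a broad peak and is not among the genes counted below. Its RNA was at 48.0, 42.3 and 47.0 RPKM in EPZ6438 and 31.9, 30.6 and 28.7 RPKM in DMSO. The arms did not overlap and Runx2 rose (log2 change 0.59, SE 0.08, limma adjusted p = 0.00813), a call that ended without DMSO replicate 2 (adjusted p = 0.0620) or without EPZ6438 replicate 3 (0.0543). Runx2os1 was at 0.839, 0.522 and 1.07 RPKM in EPZ6438 and 0.805, 0.794 and 0.696 RPKM in DMSO, with reads that cannot be kept apart from those of Runx2 without strand.

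Smarca2, which encodes BRM, an ATPase of the SWI/SNF chromatin remodelling complexes, had the third broadest peak, 2860 bases at chr19:26605197-26608056, just inside its start. In DMSO the same stretch held 4 peaks of 192, 498, 508 and 524 bases. Another broad peak of 1581 bases (rank 200) was centred inside the gene, 30323 bases from its far end, over 4 DMSO peaks of at most 233 bases. The RNA went the other way from the widths. It was at 32.6, 31.6 and 30.5 RPKM in EPZ6438, all below the 45.3, 43.3 and 41.5 RPKM in DMSO, and Smarca2 fell (log2 change -0.46, SE 0.07, limma adjusted p = 0.0123). The call ended without DMSO replicate 2 and without each EPZ6438 replicate (adjusted p from 0.0532 to 0.0924).

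The rest of the 10 broadest held a mixed set of genes. None of the 6 tested among them passed in limma, 0 reached an unadjusted p below 0.05, and voom called 0. Crim1 (2738 bases) encodes a membrane protein that binds BMPs, Mxi1 (2737 bases) a MYC antagonist of the MAD family, and Snai1 (2628 bases) a zinc-finger repressor known from the epithelial-mesenchymal transition. Snai1 was at 13.8, 19.7 and 18.6 RPKM in EPZ6438 and 13.6, 19.2 and 26.8 RPKM in DMSO (log2 change -0.15, SE 0.25, limma adjusted p = 0.787). Fbxl14, which encodes the substrate-binding part of a ubiquitin ligase, lies within the span of Wnt5b and had 2664 bases over DMSO peaks of 252 and 196 bases, the highest ratio of all (10.6). The peak of 2581 bases at chr5:137530609-137533189 had ends of Epo, Gnb2 and Gm17112 within 1 kb and 5 DMSO peaks beneath it. The remaining members of the 10 were A330032B11Rik, a noncoding gene inside Cpeb3, and Gm10800.

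Gm10800 needs its own mention. Its peak of 2728 bases (chr2:98666083-98668810) lay over a DMSO H3K4me3 peak of 1465 bases, and 1395 of its bases were also under H3K27me3 in the DMSO list. The RNA of Gm10800 was listed at 0 in all DMSO libraries and at most 0.144 RPKM in EPZ6438. Another broad peak, 1545 bases at chr4:3089594-3091138, had no gene within reach and 1510 of its bases under DMSO H3K27me3. Peaks were not screened here for regions of unreliable mapping, and whether these places are such regions was not tested.

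Width also differed from DMSO in the other direction. Only 15 of the 935 overlapped peaks were narrower in EPZ6438 than the widest DMSO peak. The largest deficit was at Kdm5b, which encodes an H3K4 demethylase, with 1189 bases in EPZ6438 against 1677 in DMSO. At Gm20721, inside Gnas, the widths were 1722 and 1964 bases, and between Nlgn2 and Tmem256 they were 1111 and 1345 bases. Of the 65 broad peaks with no DMSO peak, the broadest were 1958 bases at Gas5 and Zbtb37, 1814 bases at Vgll3, a cofactor of TEAD factors, and 1731 bases at Edem1, which acts in the degradation of misfolded glycoproteins. Gas5, a noncoding snoRNA host gene, was well expressed in both arms, at 139 ± 7.0 RPKM in EPZ6438 and 132 ± 19 RPKM in DMSO (SD, n = 3 each). The tested genes among these did not pass, with Nlgn2 passing when DMSO replicate 1 was left out (limma adjusted p = 0.0480).

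At the edge of the set, the last 3 members were peaks of 1070 bases at Srsf7 and Ttc39d, at Ptpn13 and at Irx5. The next 3 peaks of the list, just outside, had 1069 bases at Psmb1, 1069 bases with no gene end in reach, and 1068 bases at Ptbp1 and E130317F20Rik. Widths on either side of the limit thus differed by 1 base.

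Overlap with H3K27me3 peaks was rare among the broad peaks. It was counted from 1 base between separate lists, so it does not show that a promoter was bivalent. Of the 1000, 5 (0.500%, interval 0.214 to 1.17) overlapped an H3K27me3 peak of the DMSO list, against 2.78% of the other EPZ6438 H3K4me3 peaks. Among peaks at gene ends the shares were 4 of 878 (0.456%) and 92 of 10826 (0.850%), with intervals that overlap (0.177 to 1.17 and 0.693 to 1.04). The EPZ6438 H3K27me3 list held 20764 peaks over 11.6 Mb, against 143399 peaks over 89.4 Mb in DMSO. It overlapped 0 of the 1000 broad peaks, against 1.03% of the other peaks. A floor of 3 counts allows a share of up to 0.300% (Wilson upper bound 0.383%). At gene ends it overlapped 0 of 878 broad peaks (upper bound 0.436%) and 22 of 10826 others (0.203%, 0.134 to 0.308). These intervals overlap, so the 0 does not set the broad peaks at gene ends apart. The 5 under DMSO H3K27me3 were the Gm10800 and chromosome 4 peaks above, Phospho1 with 252 bases under H3K27me3, Gm26854 with 168 bases and March9, a membrane-bound ubiquitin ligase gene, with 83 bases. Wilson intervals cover counting error only.

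The genes at the broad peaks were mostly protein coding. A gene end lay within 1 kb of 878 of the 1000 peaks (87.8%), against 71.1% of the other peaks, and 626 of these peaks had 1 gene, 218 had 2 and 34 had 3 or more. Of the 122 without one, 109 lay inside a gene, such as a peak of 2528 bases in Prrx2, a homeobox gene of limb and skull mesenchyme, and 13 lay outside genes. In all 1174 genes were reached, 941 of them protein coding, 56 lincRNA and 52 antisense. The broad peaks were unevenly spread over chromosomes, with 11.4% of the EPZ6438 peaks of chromosome 19 (85 of 746) among them, 9.60% of chromosome 6 and 9.17% of chromosome 17, against 0.905% of chromosome X (2 of 221) and 3.25% of chromosome 13.

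Their genes were expressed at higher levels than genes at narrower peaks, in both arms alike. The median over the 1174 genes was 10.9 ± 0.136 RPKM in EPZ6438 and 11.0 ± 0.132 RPKM in DMSO (SD, n = 3 each), against 8.08 ± 0.0746 and 8.21 ± 0.0479 RPKM for 9415 genes at the other EPZ6438 peaks. For protein-coding genes the medians were 15.3 ± 0.264 RPKM in EPZ6438 and 15.4 ± 0.258 RPKM in DMSO at broad peaks, and 9.96 ± 0.0917 and 10.1 ± 0.0864 RPKM at the other peaks. Of the coding genes at broad peaks 66 (7.01%) exceeded 100 RPKM in EPZ6438, against 3.88% at the other peaks. By rank, the medians were 19.4 RPKM for peaks 1 to 200, 15.8, 14.8, 12.2 and 15.9 RPKM for the next 4 groups of 200, and then 13.2 RPKM for the next 1000 peaks, and 11.8, 10.2 and 7.34 RPKM for ranks to 4000, to 8000 and to 16216. Spearman's rho between width rank and RPKM was -0.19 across 8759 coding genes at EPZ6438 peaks and -0.04 across the 925 tested ones at broad peaks. These are correlations across genes, which share the same libraries and are not independent replicates. The coding genes at broad peaks were also longer in exons, with a median of 4809 bases against 3837.

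**Figure D3:**
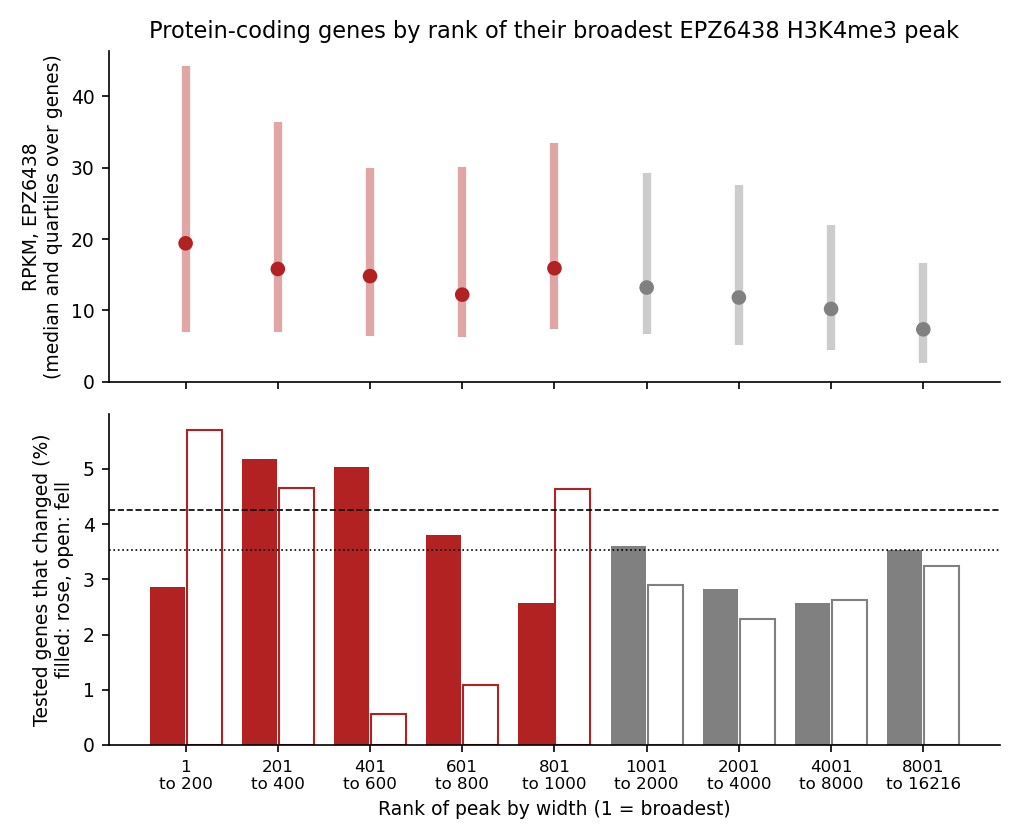
Protein-coding genes grouped by the width rank of their broadest EPZ6438 H3K4me3 peak (horizontal axis, red for the 1000 broadest and grey for the others). The upper panel gives RPKM in EPZ6438 as the median and quartiles over genes, from 19.4 at ranks 1 to 200 to 7.34 in the last group. The lower panel gives the percent of tested genes that rose (filled) and fell (open), with the shares over all tested protein-coding genes as a dashed line for rises (4.25%) and a dotted line for falls (3.53%).

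The second comparison asked whether RNA of these genes changed under EPZ6438. RNA changes at broad peaks were about as frequent as over all tested genes. Of the 1174 genes, 1034 had enough reads to be tested, 36 were listed at 0 in every library and the others were too low. Among the 1034, 38 rose and 34 fell (limma adjusted p under 0.05), or 6.96%, against 7.04% of all 14213 tested genes. The shares by direction were 3.68% and 3.29% at broad peaks, against 3.80% rising and 3.24% falling over all tested genes. Genes at the other EPZ6438 H3K4me3 peaks passed in 5.69%, with 249 rises and 222 falls among 8279. Changes of at least 2-fold were seen in 6 rising and 4 falling genes, 0.967% of those tested. The share was 1.22% at the other EPZ6438 peaks and 2.38% over all tested genes. The arms did not overlap in 287 of the 1034 genes (27.8%), against 26.7% of all tested genes, and the median log2 change was -0.03 in both sets. The counts moved with single libraries. Leaving out DMSO replicate 2 gave 16 rises and 7 falls. Leaving out a library of the EPZ6438 arm gave 20 rises and 12 falls for replicate 1, 22 rises and 10 falls for replicate 2, and 14 rises and 7 falls for replicate 3. Without a filter on low values 30 rose and 21 fell. Over all tested genes, each of these settings also gave fewer rises than the 540 of the main fit, and the falls moved as well. The movement was thus not confined to genes at broad peaks.

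Width gain and RNA change had little rank correlation. Across 866 coding genes at broad peaks with a DMSO peak, Spearman's rho between the width ratio and the log2 RNA change was 0.03. Where the EPZ6438 peak was at least 4 times as wide as the DMSO peak, 8 of 214 coding genes rose and 9 fell (7.94%). The counts were 15 and 15 of 345 at ratios of 2 to 4 (8.70%), 11 and 5 of 307 below 2 (5.21%), and 2 and 2 of 59 with no DMSO peak (6.78%). Over all 12084 tested protein-coding genes, 7.78% passed.

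**Figure D4:**
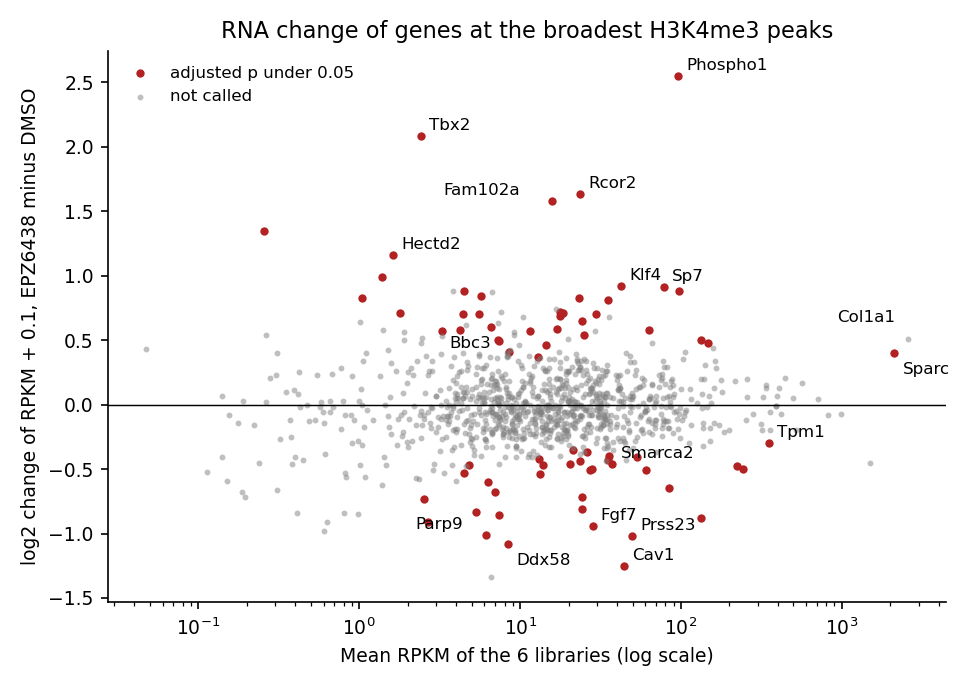
RNA change of the 1034 tested genes at the 1000 broadest H3K4me3 peaks (log2 of RPKM + 0.1, EPZ6438 minus DMSO) against the mean RPKM of the 6 libraries (log scale). Red points passed the test, 38 above 0 and 34 below, and Phospho1 stands highest at 2.55.

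Among the genes that rose, the mineralization gene Phospho1 changed most. It encodes a phosphatase that supplies phosphate inside matrix vesicles, and its peak of 1640 bases (chr11:95824477-95826116) lay over DMSO peaks of which the widest was 623 bases. It was at 153, 165 and 174 RPKM in EPZ6438 and 24.5, 28.4 and 31.1 RPKM in DMSO, and every EPZ6438 library was far above every DMSO library (log2 change 2.55, SE 0.10, limma adjusted p = 8.2e-05). Phospho1 overlaps Zfp652 and Abi3 in the table, so its reads may be shared. It was also 1 of the 5 genes or regions with DMSO H3K27me3 named above, and the EPZ6438 H3K27me3 list had none there.

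The next 4 rises, leaving out a noncoding neighbour, were of Tbx2, Rcor2, Fam102a and Hectd2. Tbx2 encodes a T-box repressor and was at 3.25, 4.42 and 4.23 RPKM in EPZ6438 against 0.880, 0.670 and 1.04 RPKM in DMSO (log2 change 2.08, SE 0.20, limma adjusted p = 0.00178). The neighbour 2610027K06Rik at the same peak (rank 810) was under 1 RPKM in every library and was called at an adjusted p of 0.0438 by limma, but not in 5 other settings (adjusted p from 0.0647 to 0.159), a pseudocount of 1 RPKM among them. Rcor2, a corepressor of the CoREST complex with LSD1, was at 32.3, 39.9 and 35.1 RPKM in EPZ6438 against 9.75, 11.7 and 13.3 RPKM in DMSO (log2 change 1.63, SE 0.13). Fam102a was at 22.5, 24.3 and 24.2 RPKM in EPZ6438 against 6.58, 8.09 and 9.13 RPKM in DMSO (log2 change 1.58, SE 0.13). Hectd2, a ubiquitin ligase gene, was lower in level, at 2.52, 2.01 and 2.27 RPKM in EPZ6438 against 1.09, 0.998 and 0.796 RPKM in DMSO (log2 change 1.16, SE 0.17), and its call ended without EPZ6438 replicate 3 (adjusted p = 0.0527 by limma). By width, the peaks ranked 172 for Rcor2, 726 for Hectd2, 810 for Tbx2 and 890 for Fam102a.

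Of the falls, that of Cav1 was the largest in size. Cav1, the scaffold protein of caveolae, was at 28.9, 24.2 and 24.7 RPKM in EPZ6438 against 72.1, 60.6 and 53.8 RPKM in DMSO (log2 change -1.25, SE 0.13, limma adjusted p = 0.00219). Ddx58, which encodes the viral RNA sensor RIG-I, was at 5.72, 5.16 and 5.33 RPKM in EPZ6438 against 12.0, 12.2 and 10.5 RPKM in DMSO (log2 change -1.08, SE 0.10). Parp9 and Dtx3l, interferon-responsive partners that share 1 peak of 1393 bases between their starts, fell by 1.01 and 0.91 on the log2 scale. Their gene models overlap, so their reads may be shared. Prss23, a serine protease gene, fell by 1.02 and Fgf7, a fibroblast growth factor that acts on epithelia, fell by 0.94. The calls of Fgf7 and Dtx3l ended when DMSO replicate 2 or EPZ6438 replicate 3 was left out, and that of Dtx3l also when EPZ6438 replicate 2 was (limma adjusted p from 0.0571 to 0.0852). The 6 falls lay at 5 peaks, all wider in EPZ6438 than in DMSO, as were 98.4% of all broad peaks with a DMSO peak, with 1509 bases over a widest DMSO peak of 546 at Ddx58 and 1113 over 406 at Cav1.

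**Figure D5:**
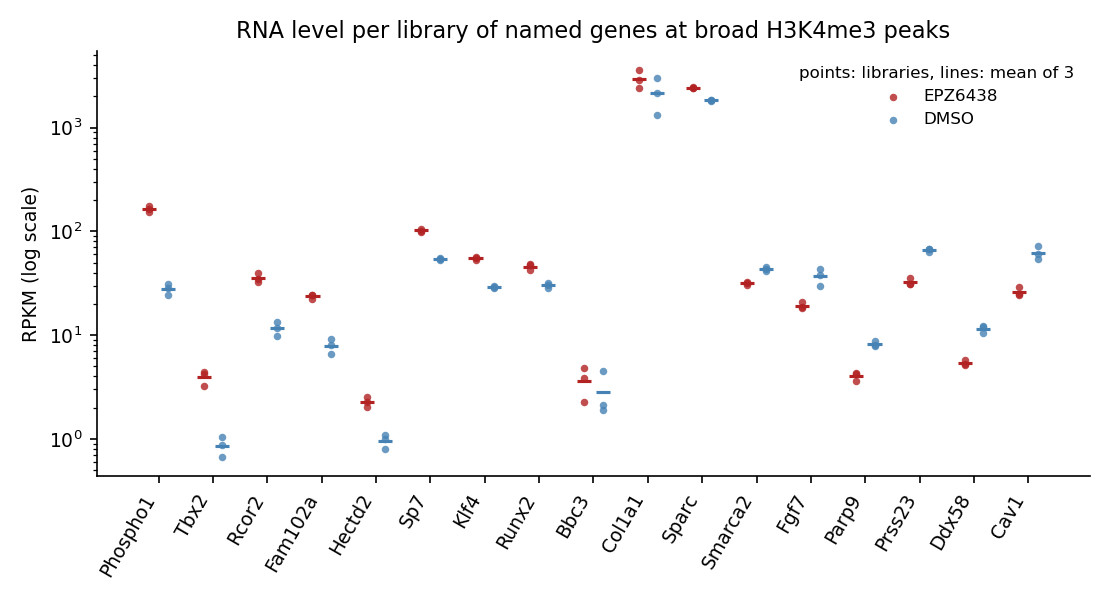
RPKM per library (log scale) of named genes, EPZ6438 left of DMSO, with points for the 3 libraries and lines for their mean. The arms separate for all genes shown other than Bbc3 and Col1a1, and Runx2 holds broad peaks only within its span.

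The fixed gene lists were then read against the background of all protein-coding genes of the table, of which 941 of 22019 (4.27%) were at broad peaks. Of the 22019, 12935 had no EPZ6438 H3K4me3 peak within 1 kb of an end. Only 12084 were tested, and 925 of these were at broad peaks. For lists of mostly expressed genes the 4.27% is thus an unlike base, and a higher share is no enrichment by itself. The lists were chosen with these data known and were not tested. Over all tested protein-coding genes 4.25% rose and 3.53% fell in limma, and the counts of rises and falls over whole lists below are also from limma. Of 20 osteoblast transcription factor genes 5 were at broad peaks: Zeb1, Dlx5, Sp7, Twist1 and Prrx1. Sp7, which encodes osterix and acts downstream of Runx2, had 1604 bases over a widest DMSO peak of 360. It was at 99.1, 105 and 101 RPKM in EPZ6438 against 52.6, 53.8 and 55.8 RPKM in DMSO and rose (log2 change 0.91, SE 0.07, limma adjusted p = 0.000704). Dlx5, a homeobox activator of osteoblast genes, was at 16.5, 23.9 and 22.6 RPKM in EPZ6438 against 9.82, 11.7 and 16.4 RPKM in DMSO. It did not pass (log2 change 0.74, limma adjusted p = 0.0919), but passed without DMSO replicate 3 (0.0261). The other 3 did not pass, and the median log2 change of the 5 was -0.09. Over all 20 genes of the list, 5 rose and none fell.

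Of 22 osteoblast matrix and mineralization genes 3 were at broad peaks. Col1a1, the main collagen chain of bone, had the 12th broadest peak, 2529 bases at chr11:94936332-94938860 just inside the gene, over DMSO peaks of 547, 218 and 218 bases. Its RNA was at 2383, 3583 and 2899 RPKM in EPZ6438 and 1320, 2149 and 3039 RPKM in DMSO. The arms overlapped and Col1a1 did not pass (log2 change 0.51, SE 0.30, limma adjusted p = 0.410). Sparc, which encodes osteonectin, had 1366 bases over 338 in DMSO and was at 2457, 2400 and 2386 RPKM in EPZ6438 against 1836, 1839 and 1811 RPKM in DMSO. It rose by a small amount (log2 change 0.40, SE 0.09, limma adjusted p = 0.0412), and the call ended in 8 other settings (adjusted p from 0.0528 to 0.381). Phospho1 was the third. Over the whole list, 11 of 20 tested genes rose and 3 fell, with a median log2 change of 0.69.

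The actin cytoskeleton and adhesion list had the highest share of the lists, 9 of 23 (39.1%): Tln1, Myh9, Tpm1, Itga5, Tpm4, Cd44, Vim, Cnn3 and Actb. None of them rose. Cnn3, a calponin, and Tpm1, a tropomyosin, fell. Tpm1 was at 308, 321 and 319 RPKM in EPZ6438 against 383, 391 and 392 RPKM in DMSO (log2 change -0.30, SE 0.07, limma adjusted p = 0.0478), a call that ended in 8 other settings (adjusted p from 0.0711 to 0.213). Tln1, which links integrins to actin, and Myh9, a nonmuscle myosin, did not pass, and the Myh9 peak of 1633 bases had no DMSO peak beneath it. Cnn3 was singled out after its values were seen. Over the list, 1 of 23 genes rose and 3 fell.

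Among genes of H3K4 methylation itself, 5 of 19 were at broad peaks: the methyltransferase genes Setd1b, Kmt2a and Kmt2c and the demethylase genes Kdm5b and Kdm5a. None of the 19 passed in limma, 1 reached an unadjusted p below 0.05, and voom called 0. Setd1b had 2363 bases over a widest DMSO peak of 809. Smarca2 was the only one of 25 SWI/SNF genes at a broad peak, and in limma the only one of the 23 tested that passed, while voom called Bcl7a as well. None of 13 genes of PRC2 and H3K27 enzymes and none of 39 Hox genes were at broad peaks, and 1 tested gene of each list rose.

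Of 22 genes of p53 response and cell death 4 were at broad peaks, Bbc3, Phlda3, Trp53inp1 and Mdm2, and none of the 4 passed in limma or voom, with 2 at an unadjusted p under 0.05. Over the list, 2 of 20 tested genes rose and none fell. Phlda3, a p53-induced repressor of AKT, had 1886 bases over 358 in DMSO and was at 86.0, 90.6 and 81.5 RPKM in EPZ6438 against 62.3, 68.3 and 74.0 RPKM in DMSO. The arms did not overlap, yet the change missed the threshold (log2 change 0.34, limma adjusted p = 0.0702), and it passed when DMSO replicate 3 was left out (0.0413). Of 26 immediate early genes 3 were at broad peaks. Klf4, a zinc-finger factor of that list, was at 53.3, 55.3 and 57.0 RPKM in EPZ6438 against 29.3, 28.6 and 29.7 RPKM in DMSO and rose (log2 change 0.92, SE 0.07, limma adjusted p = 0.000704). Its peak of 1355 bases lay over a widest DMSO peak of 932. Ier5 and Fosl2 did not pass, and over the list 5 of 26 genes rose and 1 fell.

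Among signalling genes, 7 Wnt genes were reached, Fzd7 and Fzd5 of 39 ligands, receptors and antagonists and Dvl3, Dvl2, Tcf7l1, Ccnd1 and Znrf3 of 23 effectors and feedback genes. Fzd5, a Wnt receptor, had 1250 bases over 212 in DMSO and was at 6.95, 6.39 and 7.28 RPKM in EPZ6438 against 4.03, 4.31 and 4.21 RPKM in DMSO. It rose (log2 change 0.70, SE 0.10, limma adjusted p = 0.00922), a call that ended without DMSO replicate 2 and without EPZ6438 replicate 1 or 3 (adjusted p from 0.0528 to 0.0680). Ccnd1, which encodes cyclin D1 and was singled out after its values were seen, also rose (log2 change 0.50, limma adjusted p = 0.0101). Over the whole lists, 10 of 26 tested ligand, receptor and antagonist genes rose and 3 fell, and 5 of 19 effectors and feedback genes rose and none fell. Of BMP and TGF-beta genes 5 of 33 were reached, Acvr1, Bmp1, Smurf2, Tgfb2 and Smad6. None passed in limma, 2 reached an unadjusted p below 0.05, and voom called 1, Bmp1. Over the list, 3 of 30 tested genes rose and 2 fell. Bmp1, the procollagen C-proteinase, was at 40.5, 46.3 and 44.4 RPKM in EPZ6438 against 21.7, 27.4 and 34.2 RPKM in DMSO, with arms that did not overlap (log2 change 0.68, limma adjusted p = 0.0519). It passed in 4 of the other settings (adjusted p from 0.0111 to 0.0492). The Hedgehog list gave Foxc1 and Smo of 23 genes, the Notch list Rfng of 19, the chondrocyte list Sox9 and Sox5 of 13 and the ribosomal protein list 5 of 30. None of these genes at broad peaks passed in limma or voom, and 0 had an unadjusted p under 0.05. Over the whole chondrocyte list, 6 of 10 tested genes rose and none fell, with a median log2 change of 0.88. In the other lists, 2 of 15 tested Hedgehog genes rose and 2 fell, 1 of 12 Notch genes fell and none rose, and none of 30 ribosomal protein genes passed in limma or voom, with 0 at an unadjusted p under 0.05.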

How the data were processed

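The authors deposited expression as RPKM per gene, per the file headers, and peak lists that hold only chromosomes, starts and ends, for each mark in each arm. Per the file names, samples of an arm were merged and peaks called over that arm's input. The submitters' processing notes name, without roles, mm10 and the tools MACS2, HOMER, DiffBind, Picard, STAR 2.6.1c, Subread, FastQC and bcl2fastq. Thresholds, strand setting and the way of merging are not given.

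Peaks were compared by overlaps of at least 1 base. A gene belonged to a peak that reached within 1 kb of either of its ends, and to the broad set where both kinds of peak did so (Python 3.11.15, pandas 2.3.3, numpy 2.4.6, scipy 1.17.1, matplotlib 3.10.9). A floor of 3 counts gives the limit beside a share of 0. RPKM times length gave whole reads for 100% of values (tolerance 0.001). Testing used limma 3.58.1 in R 4.3.3 (trend, two-sided, no block) on log2(RPKM + 0.1), which understates changes of low genes, for genes where 3 or more libraries had at least 10 such reads. Benjamini-Hochberg adjustment ran over all 14213 tested genes. The procedure was tested on simulated data. The 37 mitochondrial genes, at 0 throughout, were left out. Promoters came from RefSeq, with chromosome 18 left out, and were matched by symbol for 720 of 941 coding genes.

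The members and the 21 gene lists were chosen with earlier results of these data known. Genes were named by rule: Runx2, Bbc3 and Smarca2; genes at the 10 broadest peaks; the 6 largest rises and falls that passed without overlap of arms and with at least 1 CPM; up to 3 members per list at the broadest peaks; the 3 peaks with the largest width excess, the 3 with the largest deficit and the 3 broadest with no DMSO peak; peaks under H3K27me3; and the 3 peaks on either side of the limit.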

Additional observations from a re-analysis of the deposited data

How the results depend on the processing

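With 1 merged list per arm and no depth, widths carry no replicate error. Replicate libraries varied more than counting noise allows (lowest chi-square per gene 6.56, highest 63.1), and each was kept as its own sample. The planned count tests edgeR and DESeq2 were not run on a table deposited as RPKM, although whole reads could be recovered; voom on those reads, chosen after seeing the data, gave 45 rises and 40 falls at broad peaks. Of 19 named genes that passed, 10 passed in every setting run, and no named gene reversed. Without a filter on low values, 21 genes at broad peaks fell, and over all tested genes 355 rose and 273 fell. Leaving out 1 library gave 14 to 44 rises and 7 to 36 falls at broad peaks, and 190 to 539 rises and 93 to 464 falls over all genes. With gene ends within 100 bases, 20 rose and 22 fell. For the 500 broadest peaks 19 rose and 22 fell, and for the 2000 broadest 75 rose and 63 fell. These settings of window and rank used the main fit, in which 7.04% of all 14213 tested genes passed. They count different numbers of genes, and the part of that in the counts was not tested. The voom counts above and the replicate block counts below have no share over all genes beside them. They are therefore not read as particular to broad peaks. The median level in EPZ6438 was 11.3 RPKM within 100 bases, 9.08 within 5 kb, 11.3 for the 500 and 11.1 for the 2000 broadest peaks, 15.3 for protein-coding genes and, in a setting added after seeing the data, 14 at RefSeq starts. The share wider than in DMSO was 95.5% where 50% of the peak had to overlap and 96.8% with peaks within 500 bases joined; the cause was not tested. The H3K27me3 shares did not move beyond their intervals.

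Same-numbered samples of the arms had correlated deviations of 0.41, 0.0781 and 0.0561, too low to pair them, although 4 of 6 samples correlated best with their own number. With the replicate block, 41 genes at broad peaks rose and 32 fell; Dlx5 (adjusted p = 0.0157) and Bmp1 (0.0168) then passed in limma, while Sparc (0.0694) and Tpm1 (0.0745) did not.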

Other observations

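Further genes at broad peaks passed the RNA test and are given here as values, singled out after they were seen. Their calls were not followed gene by gene through the other settings, in which 10 of the 19 named genes that passed kept the call throughout. Nrp2, a receptor for semaphorins and VEGF, was at 132, 120 and 128 RPKM in EPZ6438 against 71.4, 69.9 and 65.2 RPKM in DMSO (log2 change 0.88, limma adjusted p = 0.00121). It had 1 broad peak near a gene end (rank 700) and another inside the gene (rank 61). Lrp4, a receptor for sclerostin and agrin, was at 36.3, 36.8 and 36.6 RPKM in EPZ6438 against 21.2, 22.5 and 23.6 RPKM in DMSO. Vegfa, the main angiogenic growth factor, was at 8.62, 8.22 and 8.84 RPKM in EPZ6438 against 5.56, 6.29 and 6.20 RPKM in DMSO. Dnmt3a, a DNA methyltransferase, rose by 0.70 on the log2 scale at a peak of rank 89.

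Among the falls, Six2, a homeobox factor of progenitor cells, was at 18.0, 17.6 and 19.0 RPKM in EPZ6438 against 28.9, 29.9 and 31.1 RPKM in DMSO (log2 change -0.72, limma adjusted p = 0.00252). Cdkn1b, which encodes the cell cycle inhibitor p27, was at 23.2, 20.9 and 23.4 RPKM in EPZ6438 against 33.5, 33.2 and 29.4 RPKM in DMSO, and Csf1, the macrophage and osteoclast growth factor, at 30.1, 30.2 and 29.6 RPKM against 36.5, 42.8 and 42.4 RPKM. Marcks, an actin-binding membrane protein, fell by 0.88 on the log2 scale. In each of these genes the arms did not overlap.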
